A study of Homo sapiens with 30 samples.

Results

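In the line that carries the Welander mutant of TIA1, the cytosol of cells induced with tetracycline and then exposed to arsenite was compared with the cytosol of the same line left alone. There were 3 libraries in each of these groups, 6 of the 30 in the series, and 16670 of the 60664 genes in the count table had enough reads to be tested. The cells were FT293, the Flp-In T-REx form of HEK293, an established human embryonic kidney line, in which a transgene placed at a fixed genomic site stays silent until tetracycline is added. The transgene here was TIA1a fused to GFP, with the change found in Welander distal myopathy (WDM in the labels), a late-onset muscle disease, or without it (WT). The untreated group (genotype WDM, treatment given as none) carried the transgene uninduced, and the other group (genotype WDM) received tetracycline and then 0.5 mM sodium arsenite for 60 min. The tetracycline dose and time were not given in the sources used here. All 6 libraries came from cellular extracts, which the labels call cytosol, of a kidney-derived line and not of muscle. The labels name 1 line for each genotype, so what belongs to the mutation and what belongs to that line cannot be told apart. No cytosol group received arsenite without tetracycline, so the comparison spans both treatments together.

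TIA1 is an RNA-binding protein that binds U-rich sequence, represses translation of the mRNAs it holds and helps assemble stress granules. These granules are RNA-protein condensates that form when translation initiation is blocked, and arsenite, an oxidant that attacks thiols, is a standard way to provoke them. Arsenite also drives stress-activated kinases, which switch on immediate-early genes within minutes. It induces heat-shock and antioxidant programmes as well, and through phosphorylation of eIF2alpha it starts the integrated stress response.

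Total counts of the 6 libraries ran from 11433211 to 16761512. The 3 untreated libraries were close to each other. A chi-square comparison of their counts over genes gave 1.65 to 2.05 per degree of freedom for pairs of them, against 9.07 to 16.5 among the induced, arsenite-treated libraries. The latter also held more detectable genes, 16080 to 16769 with at least 10 counts against 15193 to 15763. Induced libraries without arsenite, which lie between the compared groups, had 7971585 to 18884843 counts and scattered widely. On the first principal component of the 9 WDM libraries (48.6% of the variance) the untreated libraries lay between -27.9 and -24.9, and the arsenite-treated ones at 46.4, 47.9 and 28.1. Induced replicate 2 lay at -30.6, beside the untreated libraries, whereas induced replicates 1 and 3 lay at -1.75 and -9.55. No pair of libraries agreed within sampling noise. The labels do not say whether replicates were separate cultures, so p-values measure only the spread between these libraries. Levels are given as CPM, counts per 1000000 counts of the scaled library. The floor, up to which a gene with no reads could still lie, was taken as 3 counts and was 0.159 to 0.376 CPM in the 18 cytosol libraries. It covers counting error only. In RNA from bulk cultures, fewer cells with a transcript and less transcript per cell cannot be told apart.

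Induction could not be checked from the transgene. TIA1 had 2 counts over the 18 cytosol libraries and at most 1 in any of them. Its paralog TIAL1 was at 66.8, 69.8 and 70.1 CPM in untreated cells, 46.8, 32.3 and 43.4 CPM after induction and 81.9, 68.9 and 60.5 CPM with arsenite. All induced libraries without arsenite were thus below all the others, and the outer groups overlapped. The fall with tetracycline was 0.76 on the log2 scale and the rise with arsenite 0.79, so that the net change was 0.03 (SE 0.136, edgeR adjusted p 0.865). Of the markers of the line, KRT8 (105 CPM untreated, 110 CPM treated), KRT18 (91.4 and 92.4 CPM) and VIM (651 and 670 CPM) were abundant and not called. CDH1, CDH2 and EPCAM were called lower, by 0.54, 0.25 and 0.45 on the log2 scale. The kidney factor PAX8 was near 0 (0.0834 and 0.0397 CPM), while PAX2 was at 3.80 and 5.12 CPM. WT1, another kidney factor, was called higher (6.61 and 8.83 CPM, log2 fold change 0.42). Of 6 neural markers, NEFL fell from 193 to 104 CPM (-0.89) and INA rose from 9.48 to 15.7 CPM (0.74), while ENO2 was not called and 3 were too low to test. Markers of blood (CD3E and HBB at 0) and of muscle (MYH7 at 0 in both groups) were absent or nearly so. ACTA1, skeletal muscle actin, was the only 1 of 7 muscle markers with enough reads to be tested. It was called higher, from 0.264 to 1.60 CPM, with its untreated level near the floor of 3 counts. The other 6 were too low to test and none of them rose: DES, for example, went from 0.528 to 0.152 CPM and MYOD1 from 0.176 to 0.0637 CPM.

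Across all genes the change was broad and mostly small. A gene was called at a Benjamini-Hochberg adjusted p under 0.05 in edgeR's quasi-likelihood F-test. By that rule 6513 genes (39.1% of those tested) were called, 3174 higher (19.0%) and 3339 lower (20.0%). Their median absolute log2 fold change was 0.534. Changes of a log2 fold change of 1 or more were mainly increases: 881 genes (5.28%) were higher by that much and 300 (1.80%) lower. When the test asked instead for a change beyond 1.5-fold, 458 genes were called higher and 169 lower. The division into higher and lower depended on the scaling. With library size alone in place of trimmed-mean (TMM) factors the calls were 3821 higher and 2671 lower, as that scaling raises the median log2 fold change from 0.00319 to 0.0685. All 3 treated libraries lay above all 3 untreated ones for 4385 genes (26.3%) and below them for 4508 (27.0%). These shares are the background against which the counts of gene groups should be read. The gene lists were chosen with earlier results of these data known, so their counts are descriptions and not independent tests.

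**Figure D1:**
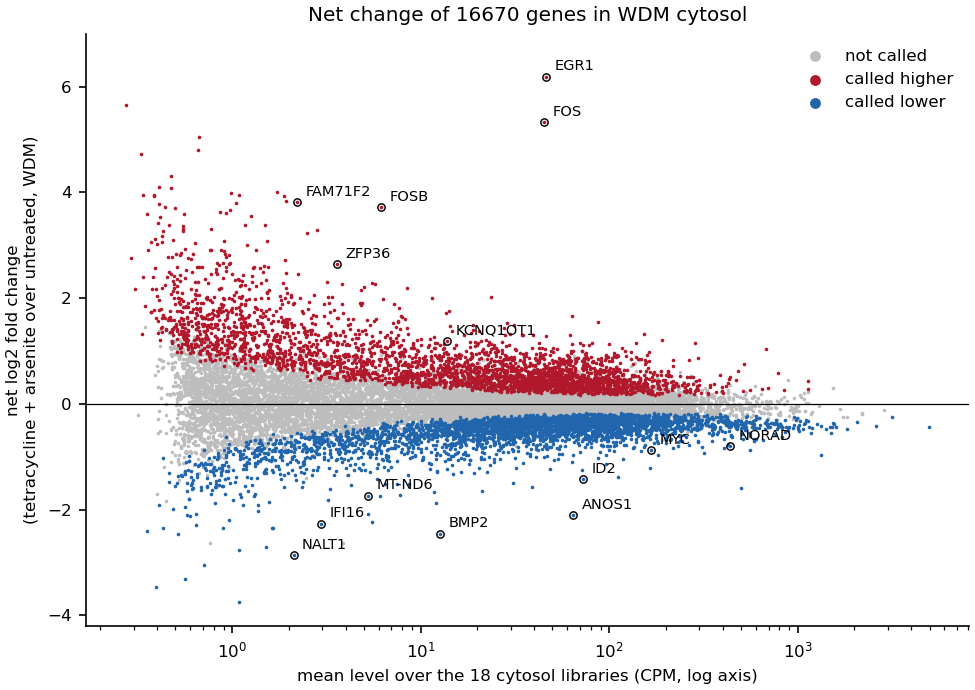
Net change of each of the 16670 genes (log2 fold change, induced plus arsenite over untreated, WDM cytosol, vertical axis) against its mean level (CPM, log axis). Coloured points are the 3174 genes called higher and the 3339 called lower, grey points are genes not called, and circles mark genes described in the text. The points above a log2 fold change of 1 sit mostly at low levels.

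The change can be divided into a tetracycline step (induced against untreated) and an arsenite step (induced plus arsenite against induced). The steps share the induced libraries with each other and the outer groups with the net change, so their values are given side by side and not compared by test. The tetracycline step called 1050 genes (6.30%), 511 higher (3.07%) and 539 lower (3.23%). The arsenite step called 4804 (28.8%), 2345 higher (14.1%) and 2459 lower (14.8%). Both numbers depended on single libraries. Without induced replicate 2, the one beside the untreated libraries, the arsenite step called 2490 genes, and without arsenite-treated replicate 1 it called 2920. Leaving out untreated replicate 2 took the tetracycline step to 422 genes, with 449 and 473 when untreated replicate 3 or 1 was left out and 608 and 649 without induced replicate 3 or 1. Genes called higher in the net change had a median log2 fold change of 0.179 in the first step and 0.467 in the second, and genes called lower -0.146 and -0.34. Where list members called in a step are counted below, the shares of that step over all genes are their background.

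Immediate-early genes led the increases. Of 27 tested members of the 28 listed, 18 were called higher and 2 lower, with a median log2 fold change of 0.864, against 19.0% and 20.0% and a median of 0.00319 over all genes. In the arsenite step 19 members were called higher and 1 lower, and in the tetracycline step none was higher and 3 were lower. EGR1 (ENSG00000120738, chromosome 5, 138465479 to 138469303, plus strand, 2 exons) encodes a zinc-finger factor induced by ERK signalling. It was at 2.36, 2.04 and 2.22 CPM in untreated libraries, 1.80, 1.73 and 1.26 CPM after induction and 198, 153 and 135 CPM after induction and arsenite. Every treated library was therefore far above every untreated one. The log2 fold change was 6.19 (SE 0.199, adjusted p 3.7e-14), 73.1-fold.

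FOS (ENSG00000170345, chromosome 14, 75278826 to 75282230, plus strand, 4 exons) encodes a subunit of the AP-1 factor. It was at 3.47, 3.65 and 3.46 CPM untreated, 2.32, 3.07 and 3.51 CPM induced, and 121, 195 and 110 CPM with arsenite. The groups did not overlap, and the log2 fold change was 5.33 (SE 0.257, adjusted p 2.38e-09), 40.2-fold. FOSB, its close relative (chromosome 19, 45467995 to 45475179), went from 0.971, 1.83 and 1.78 CPM to 18.6, 28.0 and 13.1 CPM, a log2 fold change of 3.72 (SE 0.335, adjusted p 9.52e-07). EGR3, another member of the EGR family, was under 0.3 CPM in each untreated library and at 4.51, 2.87 and 2.67 CPM with arsenite, with untreated levels near the floor of 3 counts. EGR2 rose with it, by 3.08 on the log2 scale.

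The remaining members were chosen for naming after their values were seen. FOSL1, a further partner of JUN, was at 1.73, 2.41 and 1.86 CPM untreated, 0.515, 0.863 and 0.995 CPM induced, and 7.61, 5.85 and 7.14 CPM with arsenite. It is one of 74 genes that were called lower in the tetracycline step and then higher in the arsenite step, 14 of them called in the net change. Its log2 values were -1.23, 3.00 and, net, 1.77. The abundant members moved less: JUN rose by 0.87, JUNB by 1.19, JUND by 0.86, ATF3 by 0.86 and IER2 by 1.65 on the log2 scale. The matricellular genes CCN1 and CCN2 rose by 1.32 and 1.68. MYC, the growth factor-responsive oncogene, fell by 0.88 and KLF10 by 0.45. Leaving out each of the 6 libraries in turn left 17 to 19 members higher and 2 lower.

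The promoters of EGR1, FOS and FOSB are shown because these genes rose together and belong to a class known for serum response and cAMP response elements. Each line gives the 250 bases before the transcription start from RefSeq (GRCh38.p14), and capitals mark the serum response element core known as the CArG box and the core of the cAMP response element, TGACG, in either orientation (CGTCA on the printed strand is its reverse). EGR1 is at chr5:138465229-138465478, FOS at chr14:75278578-75278827 and FOSB at chr19:45467746-45467995, all on the plus strand.
EGR1: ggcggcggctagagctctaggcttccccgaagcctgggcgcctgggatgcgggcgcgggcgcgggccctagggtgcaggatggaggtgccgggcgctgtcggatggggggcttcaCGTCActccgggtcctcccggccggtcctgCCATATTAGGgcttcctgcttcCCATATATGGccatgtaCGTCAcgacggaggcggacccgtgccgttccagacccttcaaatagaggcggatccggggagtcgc
FOS: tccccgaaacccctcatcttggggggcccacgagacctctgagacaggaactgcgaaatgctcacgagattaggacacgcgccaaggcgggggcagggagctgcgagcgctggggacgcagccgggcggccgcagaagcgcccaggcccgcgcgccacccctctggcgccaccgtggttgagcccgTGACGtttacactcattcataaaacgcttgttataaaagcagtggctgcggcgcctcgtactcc
FOSB: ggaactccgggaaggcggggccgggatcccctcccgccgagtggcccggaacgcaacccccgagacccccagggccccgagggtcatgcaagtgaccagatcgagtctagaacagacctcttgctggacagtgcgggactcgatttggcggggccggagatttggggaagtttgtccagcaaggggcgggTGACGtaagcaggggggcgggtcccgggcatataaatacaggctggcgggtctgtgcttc
The EGR1 window held 2 CArG boxes and 2 copies of TGACG, while those of FOS and FOSB each held 1 TGACG and no CArG box within these 250 bases. A CArG box lay in 1.14% and TGACG in 21.7% of all 27305 promoter windows in the RefSeq table, and in 0.948% and 29.3% of the 11281 windows of tested genes. Of the 14 immediate-early promoters that matched the table among members called higher, 1 held a CArG box and 9 held TGACG. Among the 384 matched genes higher by a log2 fold change of 1 or more, 1.30% held a CArG box and 21.4% TGACG. The motif counts describe letters in these windows only.

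**Figure D2:**
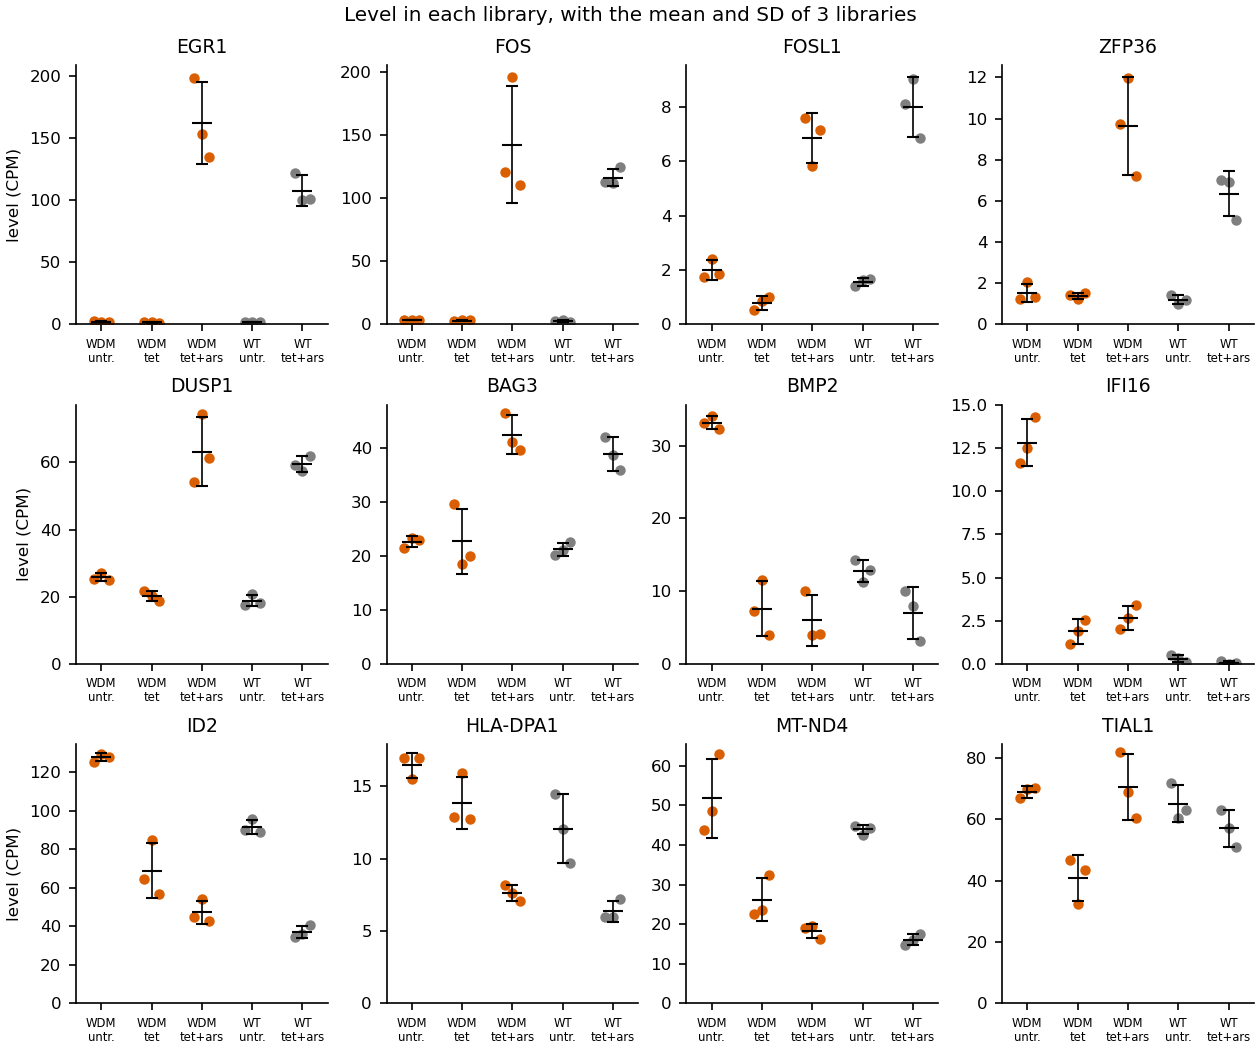
Level (CPM, linear axes from 0) of 12 genes in each library of WDM cytosol (orange: untreated, tetracycline, tetracycline plus arsenite) and WT cytosol (grey: untreated, tetracycline plus arsenite); points are single libraries and bars the mean and SD of 3. EGR1 and FOS are near 0 in untreated and induced libraries and at 110 to 198 CPM in the arsenite-treated WDM ones, whereas BMP2 and IFI16 are already low in the induced libraries.

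Inhibitors that shut off the same kinases rose as a group. Of 16 tested MAPK phosphatases and feedback inhibitors (17 listed), 14 were called higher and none lower, against 19.0% and 20.0% over all genes. Their median log2 fold change was 0.76. DUSP1 (chromosome 5, 172768096 to 172771195, minus strand), the phosphatase that inactivates p38 and JNK, was at 25.3, 27.1 and 24.9 CPM untreated, 21.6, 20.3 and 18.8 CPM induced, and 54.1, 74.3 and 61.3 CPM with arsenite. No treated library overlapped an untreated one, and the log2 fold change was 1.30 (SE 0.106, adjusted p 1.19e-07). SPRED2, an inhibitor of RAS-RAF signalling, went from 17.9, 16.2 and 17.0 CPM to 55.4, 41.2 and 40.6 CPM, a log2 fold change of 1.43. DUSP8 and SPRED3 rose by 1.24 and 1.14. DUSP4 (log2 fold change -0.17) and DUSP14 (0.10) were the 2 members not called. The number called was 13 or 14 whichever library was left out.

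Proteins that bind AU-rich elements, the U-rich signals by which short-lived mRNAs are destroyed, were represented by 12 tested members. Of these, 5 were called higher and 1 lower (median 0.429), against 19.0% and 20.0% over all genes. The tristetraprolin family led them. ZFP36 (chromosome 19, 39406847 to 39409412, plus strand), tristetraprolin itself, went from 1.25, 2.04 and 1.33 CPM, through 1.42, 1.25 and 1.52 CPM with tetracycline, to 9.74, 12.0 and 7.21 CPM with arsenite. The groups did not overlap, and its log2 fold change was 2.64 (SE 0.225, adjusted p 2.1e-07). ZFP36L1 rose by 1.07 and ZFP36L2 by 0.86, and YBX1, a translation repressor, fell by 0.30. Without untreated replicate 2 the members called higher were 3. The 1 call lower was lost without arsenite-treated replicate 1 or untreated replicate 3.

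Several of the induced mRNAs carry such an element themselves. The nonamer TTATTTATT, shown in capitals with 10 bases on each side, lies in the 3′ untranslated region of FOS, ZFP36, DUSP1 and CXCL8. The representative GENCODE v44 transcript of each gene was used (tagged MANE Select or, failing that, Ensembl canonical). Each line is on the strand of the transcript.
FOS: tgtttttaatTTATTTATTaagatggatt
ZFP36: tatgacgactTTATTTATTctaatatgat
DUSP1: gggctggtccTTATTTATTtaacttcacc
CXCL8: atgtaaagtaTTATTTATTtgaatctaca
These transcripts did not move alike. FOS, ZFP36 and DUSP1 rose, and CXCL8, the chemokine interleukin 8, fell from 2.08, 2.63 and 2.13 CPM to 0.792, 0.585 and 1.44 CPM (log2 fold change -1.31, adjusted p 0.00419). Among 10732 coding genes with a mean of at least 5 CPM, shares were taken over those with an annotated 3′ untranslated region. The nonamer was found in 10.4% of them, in 12.1% of those called higher and in 8.23% of those called lower. That region had a median length of 1491 bases over all, 1871 among genes called higher and 1151 among genes called lower. The shares were not adjusted for this length.

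Among 21 tested heat-shock chaperones and HSF factors (24 listed), 6 were called higher and 3 lower, with a median of 0.0202. These counts lie near the shares over all genes (19.0% higher and 20.0% lower, median 0.00319). BAG3, the co-chaperone mutated in a myofibrillar myopathy, went from 21.5, 23.4 and 23.1 CPM to 46.6, 41.2 and 39.7 CPM, without overlap (log2 fold change 0.91, SE 0.151, adjusted p 0.000131). DNAJB1, the main HSP40, went from 79.4, 75.8 and 77.4 CPM to 111, 157 and 119 CPM (log2 fold change 0.73). HSPD1 and HSPE1, the mitochondrial chaperonin pair, fell by 0.54 and 0.61. HSPA1A and HSPA1B, the inducible HSP70 genes, had net log2 fold changes of -0.08 and -0.21 that were not called. They are near-identical copies, so their reads may be shared between them. The 3 lower calls became 1 without arsenite-treated replicate 1 or 2. HSPE1 lost its call without either of these (-0.52 and -0.53) and without untreated replicate 1 (-0.36). HSPA6 was listed at 0 counts in all 18 libraries.

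Of 21 tested antioxidant genes under NRF2 (24 listed), 7 were called higher and 2 lower (median 0.181), against 19.0% and 20.0% over all genes. HMOX1, heme oxygenase 1 (chromosome 22, 35380361 to 35394214, plus strand), was at 8.53, 7.16 and 5.24 CPM untreated, 11.7, 13.0 and 13.2 CPM induced, and 13.2, 17.7 and 13.1 CPM with arsenite. Its rise was therefore seen already in the libraries without arsenite. The tetracycline step was 0.86 (adjusted p 0.00535), the arsenite step 0.20 (not called) and the net change 1.06 (SE 0.167, adjusted p 8.39e-05). GCLM, the modifier subunit of glutathione synthesis, rose by 0.55, ME1 by 0.58 and MAFG by 0.59, and TXN, thioredoxin, fell by 0.49. Of the metal-response genes only 3 of 10 could be tested. MT2A, a metallothionein, rose by 0.54 and the zinc exporter SLC30A1 by 0.59. The call of MT2A was lost without arsenite-treated replicate 2 (0.33) or untreated replicate 1 (0.47), which left 1 member of the list called higher.

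The integrated stress response and unfolded protein response had 7 of 19 tested members higher and none lower (median 0.186). PPP1R15A, also known as GADD34, which directs the removal of the phosphate from eIF2alpha, went from 30.6, 29.4 and 34.4 CPM to 55.7, 80.8 and 59.5 CPM without overlap. Its log2 fold change was 1.06 (SE 0.117, adjusted p 2.46e-06). ATF5, CHAC1 and DDIT3 rose by 0.83, 0.74 and 0.45, whereas ATF4, whose protein is controlled at translation, had a log2 fold change of -0.21 and was not called. Without arsenite-treated replicate 3, 1 member was called lower. Of 15 growth-arrest and p53 target genes, 4 were higher (PLK2 by 1.09, PLK3 by 0.76, GADD45B by 0.73 and CDKN1A by 0.41) and 3 lower, near the 19.0% and 20.0% over all genes. Of 11 tested NF-kB feedback and cytokine genes, 3 were higher. They were NFKBIZ (1.27), NFKBIA (0.88), the inhibitor that NF-kB itself induces, and NFKB1 (0.71). The 2 that were lower were CXCL8 and BIRC3 (-0.92).

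**Figure D3:**
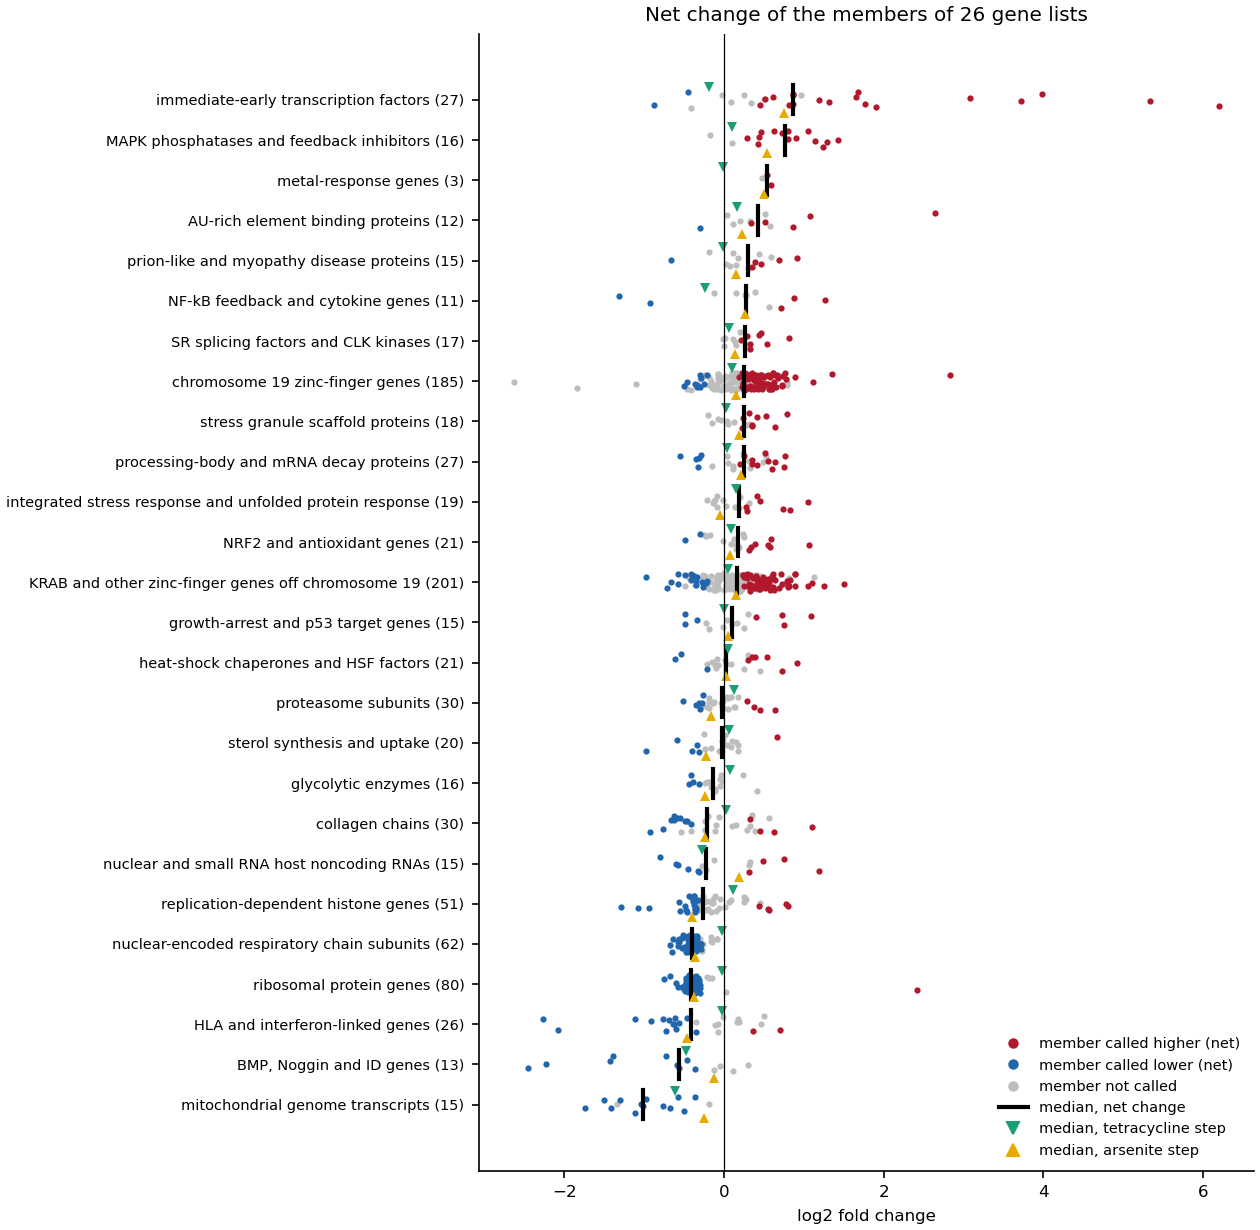
Net log2 fold change of every tested member of each gene list (points, coloured by call), with the median of the list as a bar and the medians of the tetracycline and arsenite steps as triangles; the number tested is in brackets. Immediate-early genes and MAPK inhibitors lie mostly above 0 (medians 0.864 and 0.76), ribosomal protein genes, respiratory chain subunits and mitochondrial transcripts below it (medians -0.41, -0.398 and -1.01).

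Of 18 tested stress granule scaffold genes (20 listed), 9 were called higher and none lower, against 19.0% and 20.0% over all genes, with a median of 0.252 and no change of 1 or more. YTHDF3, a reader of methylated adenosine, went from 51.1, 53.8 and 58.6 CPM to 91.0, 107 and 84.2 CPM (log2 fold change 0.79, SE 0.0975, adjusted p 7.47e-06), part of it in the tetracycline step (0.40). ATXN2 rose by 0.64 and UBAP2L by 0.53. The nucleating protein gene G3BP1 had a log2 fold change of 0.05 and was not called. ATXN2L was listed at 0 counts in all 18 libraries.

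Processing-body and decay factors were split, with 11 of 27 higher and 5 lower (median 0.246), against 19.0% and 20.0% over all genes. UPF1, the helicase of nonsense-mediated decay, went from 87.2, 80.8 and 84.8 CPM to 120, 141 and 122 CPM (log2 fold change 0.60). TNRC6B (0.76) and CNOT6 (0.64) were also higher, and the decapping genes DCP2 (-0.35) and DCP1B (-0.33) were lower. The higher count rested on single libraries. It was 5 without arsenite-treated replicate 2 or untreated replicate 2, 6 without arsenite-treated or untreated replicate 1, and 7 without untreated replicate 3. The 5 lower calls became 3 without untreated replicate 2 or 3. TNRC6B lost its call without replicate 1 or 2 of the arsenite-treated group (0.69 and 0.77) or replicate 2 or 3 of the untreated group (0.75 and 0.74). CNOT6 lost it when any single library of these groups other than arsenite-treated replicate 3 was left out, with values of 0.60 to 0.66. Of 15 tested genes for prion-like and myopathy proteins, 5 were higher, among them BAG3, and GNE was lower by 0.66. Without arsenite-treated replicate 2 there were 3 higher. Among 17 SR splicing factors and CLK kinases, 8 were higher and none lower (median 0.265), led by SRSF6 (0.81) and CLK1 (0.54), and in the tetracycline step 4 of the list were already higher and 1 was lower. The 8 became 4 without arsenite-treated replicate 2 and 5 without untreated replicate 1.

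RNA made in mitochondria fell. Of 15 transcripts of the mitochondrial genome on the list, 13 were called lower and none higher, against 20.0% lower over all genes, and 7 fell by a log2 fold change of 1 or more. MT-ND4 (mitochondrial genome, 10760 to 12137), a complex I subunit, was at 43.7, 48.7 and 63.0 CPM untreated, 22.5, 23.7 and 32.5 CPM induced, and 18.9, 19.5 and 16.2 CPM with arsenite. All untreated libraries were above all others, and the log2 fold change was -1.50 (SE 0.145, adjusted p 8.85e-07). MT-ND6, encoded on the light strand, went from 7.56, 7.52 and 8.08 CPM to 2.07, 2.28 and 2.60 CPM (log2 fold change -1.74). MT-ND4L, whose reading frame overlaps that of MT-ND4, fell by 1.42. MT-CO2 (-0.18) and MT-RNR1 (-1.34, adjusted p 0.0766) were not called. The list's median was -1.01 net, -0.612 in the tetracycline step and -0.248 in the arsenite step, with 6 and 4 members called lower. Mitochondrial genes took 0.1662% to 0.1966% of untreated counts and 0.1171% to 0.1448% of treated counts, a small share in both, and whether the extraction held mitochondria equally was not tested. With library size alone, 8 of the 15 were called lower.

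Nuclear genes for the same organelle and for ribosomes fell by a smaller but even amount. Short coding genes also fell as a class, as described below: of those under 5 kb with at least 5 CPM, 37.4% were lower (median -0.207). Of 62 tested nuclear-encoded respiratory chain subunits (79 listed), 51 were called lower and none higher, against 20.0% and 19.0% over all genes. Their median was -0.398, and none went past a log2 fold change of 1. COX6C, a subunit of cytochrome c oxidase, went from 133, 134 and 147 CPM to 77.0, 88.9 and 97.1 CPM, without overlap (log2 fold change -0.66, SE 0.13, adjusted p 0.000722). NDUFB3 and ATP5F1E fell by 0.68 and 0.64. The medians of the steps were -0.0302 and -0.367, with 51 members lower in the arsenite step and 1 in the tetracycline step. Over all genes these steps called 14.8% and 3.23% lower. Without arsenite-treated replicate 1 the net count was 28.

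Of 80 tested ribosomal protein genes (88 listed), 74 were called lower and 1 higher, against 20.0% and 19.0% over all genes. Their median was -0.41. RPS21 went from 216, 217 and 225 CPM to 125, 139 and 148 CPM without overlap (log2 fold change -0.67, SE 0.107, adjusted p 8.75e-05). RPL37A fell by 0.60 and RPL39L, a paralog of RPL39, by 0.76. The exception was RPL3L, a muscle paralog of RPL3, which rose from 0.555, 0.511 and 0.621 CPM to 2.50, 4.50 and 1.95 CPM. In the arsenite step 72 members were lower and 1 higher, and in the tetracycline step none was called. RPL and RPS genes have many processed pseudogenes that share their sequence, so their levels depend on how shared reads were counted, which is not given in the sources used here. RPS10 was listed at 0 counts in all 18 libraries, as were SDHA and COX8A of the respiratory chain.

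Replication-dependent histone genes were mixed, with 22 of 51 tested lower and 5 higher (median -0.265), against 20.0% and 19.0% over all genes. H4C11 fell from 20.2, 21.4 and 21.3 CPM to 7.67, 8.54 and 9.45 CPM (log2 fold change -1.29, adjusted p 1.77e-06), and H4C15 fell by 0.94. H2BC8 had 7.76, 7.45 and 5.86 CPM untreated and 7.55, 17.8 and 11.5 CPM treated, so its groups overlapped although it was called (0.80, adjusted p 0.0291). That call was lost without arsenite-treated replicate 2 (0.42) or any 1 of the untreated libraries (0.69 to 0.88). The balance of calls differed between the steps, with 6 members higher and 2 lower in the tetracycline step, and 2 higher and 36 lower in the arsenite step. H4C15 was one of the 2 that fell with tetracycline (-0.81, adjusted p 0.0193), and its arsenite step of -0.13 was not called. Without arsenite-treated replicate 1, 14 were lower. The 5 higher calls became 1 without arsenite-treated replicate 2, 3 without untreated replicate 1 and 2 without untreated replicate 2. Histone mRNAs are nearly identical between copies, so single members are uncertain.

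Under the naming rule 12 genes were taken at each end of the change. MT-ND6, described above, was one of the 12 lower genes. Of the 12 lower genes 9 were already lower in the tetracycline step and 7 were lower in the arsenite step. Of the 12 higher genes 3 rose in the tetracycline step and all 12 in the arsenite step. Over all genes 3.23% were lower and 3.07% higher in the tetracycline step, and 14.8% and 14.1% in the arsenite step. The net change is made up of both steps in shared libraries. Genes picked by it therefore lean the same way in the steps, and these counts are no test of either treatment. BMP2 (chromosome 20, 6767686 to 6780246, plus strand), a ligand of the bone morphogenetic protein pathway, was at 33.1, 34.0 and 32.3 CPM untreated, 7.22, 11.5 and 4.03 CPM induced, and 10.0, 3.92 and 4.04 CPM with arsenite. Both treated groups lay far below the untreated one and overlapped each other. The net log2 fold change was -2.46 (SE 0.393, adjusted p 0.000254) and the tetracycline step -2.19 (adjusted p 0.00528).

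NOG, which encodes the secreted BMP antagonist Noggin (chromosome 17, 56593699 to 56595611, 1 exon), went from 13.7, 12.8 and 14.3 CPM through 3.48, 4.70 and 4.24 CPM to 4.45, 1.64 and 2.60 CPM, a net log2 fold change of -2.23 (SE 0.219, adjusted p 9.47e-07). ID2, an inhibitor of helix-loop-helix factors and a target of BMP signalling, fell in both steps. It was at 126, 130 and 128 CPM untreated, 64.7, 84.7 and 57.1 CPM induced and 45.1, 54.2 and 43.0 CPM with arsenite, a net log2 fold change of -1.43 (SE 0.128, adjusted p 4.1e-07). In all, 9 of 13 tested BMP, Noggin and ID genes were lower and none higher (median -0.564), against 20.0% and 19.0% over all genes. This list holds BMP2, NOG and ID2 and was chosen with earlier results of these data known, so its count is only a description. ID4, ID3 and BMP7 fell by 0.72, 0.58 and 0.56, and ID1 (0.31) was not called. In the tetracycline step 6 were lower and none higher, and in the arsenite step 3 were lower and 1 higher. Without arsenite-treated replicate 1, 1 member was called higher.

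ANOS1 (ENSG00000011201, chromosome X, 8528874 to 8732137, minus strand) encodes anosmin-1, a secreted matrix protein. It was at 48.8, 49.9 and 54.8 CPM untreated, 18.4, 17.3 and 18.7 CPM induced, and 13.5, 11.1 and 10.9 CPM with arsenite. The 3 groups did not overlap, and each step was called (-1.49 and -0.62). The net log2 fold change was -2.11 (SE 0.102, adjusted p 2.33e-11), 4.32-fold lower. IFI16, an interferon-induced sensor of DNA, was at 11.6, 12.5 and 14.3 CPM untreated, 1.16, 1.92 and 2.57 CPM induced, and 2.01, 2.63 and 3.39 CPM with arsenite. Its fall lay in the tetracycline step (-2.65, adjusted p 2.9e-06), and the net value was -2.26 (SE 0.22, adjusted p 8.85e-07). NALT1, a noncoding RNA beside NOTCH1, fell from 4.51, 6.57 and 5.68 CPM to 1.22, 0.468 and 0.577 CPM (log2 fold change -2.86).

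BST2, tetherin, which holds budding viruses at the membrane, went from 11.6, 11.3 and 12.4 CPM to 4.20, 0.936 and 3.32 CPM (-2.08). GRIK3, a kainate receptor subunit, fell by 1.88, and the noncoding PRKACB-DT by 1.81. MT-TP, the mitochondrial proline tRNA, fell by 1.75, SERPINF1 (pigment epithelium-derived factor) by 1.73 and ENPP2 (autotaxin) by 1.67. PRKACB-DT, MT-TP and SERPINF1 were among 74 genes called lower in both steps. At the other end, the noncoding LINC02798 was at 0.416, 0.219 and 0.266 CPM untreated and 5.48, 5.96 and 3.61 CPM treated, and the GABA transporter gene SLC6A13 at 0.277, 0.438 and 0.266 CPM and 5.91, 5.91 and 3.61 CPM. Their untreated levels were near the floor, so the size of their fold change is uncertain. FAM71F2 rose in both steps (1.90 and 1.92, net 3.82), as did C3orf20 (1.18 and 1.09, net 2.27), both among 42 genes of that kind. IDI2-AS1 rose by 2.27, MYH15, a myosin heavy chain, by 2.20, LINC02641 by 2.20 and MIR2052HG by 2.15. IDI2-AS1 lies antisense to other exons over 20.6% of its length, and how strand was counted is not given in the sources used here.

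Antigen presentation and interferon-linked genes were mostly lower. Of 26 tested (33 listed), 14 were lower and 2 higher (median -0.412), against 20.0% and 19.0% over all genes. This list holds IFI16 and BST2 and was likewise chosen with earlier results known. HLA-DPA1, a class II chain, went from 17.0, 15.5 and 17.0 CPM to 8.16, 7.60 and 7.07 CPM, without overlap (log2 fold change -1.11, SE 0.15, adjusted p 1.92e-05). HLA-F fell by 0.91, and the classical class I genes HLA-B and HLA-C fell by 0.60 and 0.72, as did their light chain B2M by 0.62. HLA genes are close paralogs whose reads may be exchanged. IRF1, an early interferon regulator, rose by 0.70 and ISG15 by 0.36. The second higher call was lost without arsenite-treated replicate 1 or 2, or without untreated replicate 1 or 2. In the arsenite step 12 members were lower and 2 higher, and in the tetracycline step 1 was lower, which was IFI16, and none higher.

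Among 20 tested genes of sterol synthesis and uptake, 5 were lower and 1 higher. Over all genes 20.0% were lower and 19.0% higher, and the lower counts of the sterol, glycolysis and proteasome lists lay near that share. SQLE, squalene epoxidase, went from 245, 246 and 247 CPM through 169, 188 and 193 CPM to 122, 125 and 129 CPM, without overlap between any groups (log2 fold change -0.97, SE 0.0794, adjusted p 1.19e-07). INSIG1, which retains the sterol sensor in the endoplasmic reticulum, fell by 0.59. The median of this list was -0.0274 and turned to 0.0377 with library size alone, and without arsenite-treated replicate 1 there were 3 lower. Of 16 glycolytic genes 4 were lower (PFKL by 0.43) and none higher. The 4 became 2 without arsenite-treated replicate 2, and 1 gene was called higher without arsenite-treated replicate 3. Of 30 proteasome subunits 4 were higher and 6 lower. Their median of -0.0214 turned to 0.0417 with library size alone, and the 6 became 1 to 3 when any library except arsenite-treated replicate 2 was left out. Of 30 collagen chains 10 were lower (COL6A2 by 0.92, COL13A1 by 0.76) and 4 higher. The 4 became 2 without untreated replicate 3. In the tetracycline step 6 collagen chains were higher and 1 lower, and in the arsenite step 12 were lower and none higher.

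Zinc-finger genes rose in number but little in size. On chromosome 19, where most KRAB repressors lie in clusters, 82 of 185 tested ZNF genes were higher and 10 lower, with a median of 0.255 and 3 past a log2 fold change of 1. Elsewhere 62 of 201 were higher and 17 lower, with a median of 0.169. Over all genes 19.0% were higher and 20.0% lower. The largest change on chromosome 19 was that of ZNF578, from 0.0527 to 0.417 CPM on average, where both groups are near the floor. ZNF296 rose from 1.39, 1.53 and 1.51 CPM to 4.26, 3.04 and 4.04 CPM (1.35). Leaving out single libraries gave 60 to 83 higher on chromosome 19. The 10 lower calls there became 5 without arsenite-treated replicate 1 and 4 without untreated replicate 2. Elsewhere the 17 became 9 without arsenite-treated replicate 2 and 11 without replicate 1 of either group.

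Noncoding RNAs went both ways. Of 2575 tested lncRNA genes 24.4% were higher and 12.0% lower, against 18.3% and 22.1% of 13068 protein-coding genes. NORAD, an abundant cytoplasmic RNA that sequesters PUMILIO proteins (chromosome 20, 36045618 to 36051018), went from 475, 473 and 484 CPM through 358, 418 and 356 CPM to 271, 274 and 279 CPM, a log2 fold change of -0.80 (SE 0.0875, adjusted p 2.26e-06). GAS5, a small nucleolar RNA host, went from 314, 313 and 326 CPM to 196, 194 and 239 CPM (-0.60). KCNQ1OT1, which stays on chromatin at an imprinted locus, went from 10.6, 10.2 and 9.94 CPM to 27.5, 24.2 and 18.5 CPM (1.19). The other nuclear RNAs NEAT1 (164 and 204 CPM, 0.31) and MALAT1 (471 and 432 CPM, -0.12) were not called. The summed level of the 4 nuclear markers was 615 to 673 CPM in untreated libraries and 545 to 796 CPM in treated ones. Whether more nuclear RNA reached the treated extracts was not tested.

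Genes with large increases were mostly weakly expressed. Those higher by a log2 fold change of 1 or more had a median of 1.17 CPM over the 18 libraries, against 22.0 CPM for all genes, and 82.4% were under 5 CPM. Of them 45.4% were lncRNAs, against 15.5% of all genes. An expressed gene ended within 50000 bases upstream on the same strand for 54.3% of them, against 35.1% of all. Among coding genes of at least 5 CPM these shares were 36.6% for those higher by a log2 fold change of 1 or more and 34.8% for all, so the difference was small there. These shares describe the called genes, whose chance of passing the test depends on level.

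Among 10732 protein-coding genes with a mean of at least 5 CPM, the change was ordered by gene length. Gene length had a median of 40428 bases over all, 76754 among genes called higher and 26734 among genes called lower. Under 5 kb, 9.06% of 673 genes were higher and 37.4% lower, with a median net log2 fold change of -0.207. Over 200 kb, 41.6% of 1041 were higher and 5.96% lower, with a median of 0.312. The bins between them rose in order, from -0.138 through -0.0707 and -0.0128 to 0.0899. With library size alone the bin of 50 to 100 kb turned to 0.0533 and the others kept their sign. In the tetracycline step the medians of these bins stayed between 0.00293 and 0.0359, and in the arsenite step they ran from -0.259 to 0.327. These genes share the libraries, so the order is a description.

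The same genes were also ordered by how far their RNA sits in the granule fraction. That measure was taken from WT induced libraries without arsenite, granule over cytosol on the log2 scale, which share no library with the groups compared here. Genes more than 2 log2 units below 0 had 60.4% lower and 0.935% higher (856 genes, median -0.346). Genes more than 2 above 0 had 49.3% higher and 2.16% lower (647 genes, median 0.538). Medians rose through the bins between, from -0.206 through -0.0732 and 0.083 to 0.254, and kept their sign with library size alone. Within genes under 20 kb the median was -0.242 below -1 and 0.288 above 1, and within genes over 100 kb it was -0.392 and 0.349. Among genes between -1 and 1 the medians of the 4 length classes lay between -0.0207 and 0.0236. Gene length and granule share are related to each other, and which of them the change follows was not tested further. The medians of the ribosomal protein (-0.41) and respiratory chain (-0.398) lists lay near that of the lowest granule bin (-0.346). Whether those lists moved beyond what their length and granule level go with was not tested. Their relation to base composition was not tested either.

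**Figure D4:**
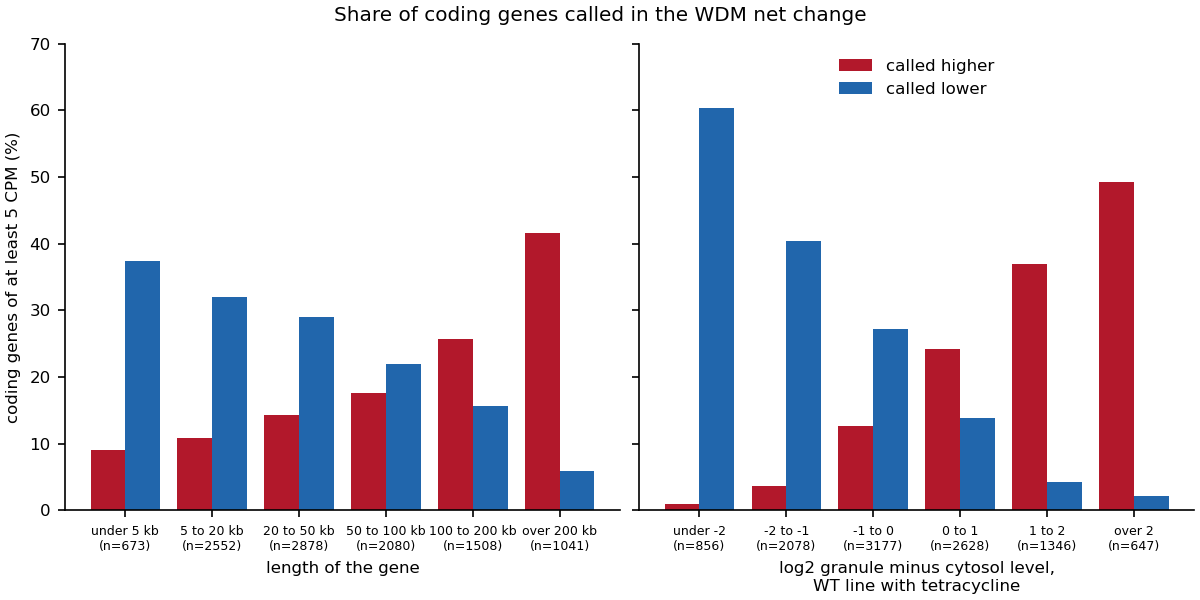
Share of coding genes called higher and lower (percent of tested genes with at least 5 CPM) by gene length (kb) and by the granule minus cytosol log2 level in WT induced cells. The share higher climbs from 9.06% to 41.6% with length and from 0.935% to 49.3% with granule level, and the share lower falls.

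Chromosome 20 stood apart in the WDM line and was singled out after the values were seen, as was the boundary at 10 Mb. From 10 Mb onward it held 245 genes with at least 5 CPM, whose median net log2 fold change was -0.244, against -0.0214 for the 11309 genes on other chromosomes. The medians of single libraries relative to the untreated mean were 0.00514, -0.00888 and -0.00837 in untreated cells. They were -0.189, -0.117 and -0.224 in induced cells and -0.207, -0.249 and -0.239 with arsenite. All 6 treated libraries were therefore below all untreated ones, and the shift was present without arsenite. In the WT line the net median of the same genes was 0.00746. Of the 245 genes 110 were lower and 12 higher. BMP2, NORAD, RPS21, ATP5F1E, PSMA7, SRSF6 and YTHDF1 are on this chromosome, the first before 10 Mb, where 53 genes had a median of -0.166. What part the chromosome-wide shift has in their values was not tested, nor was whether the WDM cultures differ in the copy number of this chromosome.

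The WT line went through the same treatments and shares no library with the groups compared here. There 5390 genes (32.3%) were called. Across all 16670 genes the log2 fold changes of the lines had a Pearson correlation of 0.826, a description across genes that are not independent replicates. Calls in both lines had the same direction for 4242 genes and opposite directions for 4. The WT log2 fold changes of EGR1, FOS, FOSB and ZFP36 were 5.89, 5.50, 3.92 and 2.40, and of ID2 and BST2 -1.31 and -2.10. The list medians in WT were 0.69 for immediate-early genes, -0.392 for ribosomal protein genes, -0.351 for respiratory chain subunits and -0.885 for mitochondrial transcripts. For the BMP, Noggin and ID genes the WT median was -0.164, against -0.564, and BMP2 had -0.87 there.

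The test of the difference between the net changes of the lines called 4 genes (0.0240% of 16670), with 760 at an unadjusted p under 0.05. ANOS1 fell by 2.11 in WDM and had a log2 fold change of -0.41 in WT, a difference of -1.70 (adjusted p 6.89e-07). COL5A2, a fibrillar collagen chain, went from 35.8, 37.7 and 39.9 CPM to 26.6, 25.7 and 28.8 CPM in WDM, while its mean rose from 5.48 to 7.99 CPM in WT (difference -1.03). LRRC7, a postsynaptic scaffold protein, went from 5.62, 6.79 and 5.15 CPM to 3.71, 2.34 and 2.31 CPM in WDM and from a mean of 8.24 to 13.6 CPM in WT (difference -1.79). APOLD1 was at 58.5, 61.1 and 57.4 CPM untreated and 72.3, 57.6 and 77.4 CPM treated in WDM, not called there, with -0.61 in WT (difference 0.84). The last 3 each had an adjusted p of 0.0386. When each of the 12 libraries behind this test was left out in turn, ANOS1 was called in 12 of 12 fits, APOLD1 in 2, LRRC7 in 1 and COL5A2 in 0. No difference between the lines was called for BMP2, HMOX1 or any listed gene except COL5A2. In WT, however, the net changes of BMP2 (-0.87) and HMOX1 (0.31) were themselves not called. Their differences between the lines were -1.58 and 0.75 (edgeR adjusted p 0.928 and 0.728, unadjusted p 0.0143 and 0.00456). IFI16 was near the floor in WT, with means of 0.309 CPM untreated and 0.0761 CPM treated, against 12.8 and 2.68 CPM in WDM. Its difference of -0.37 had an SE of 1.57, so the test could not decide whether the lines differ for that gene.

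**Figure D5:**
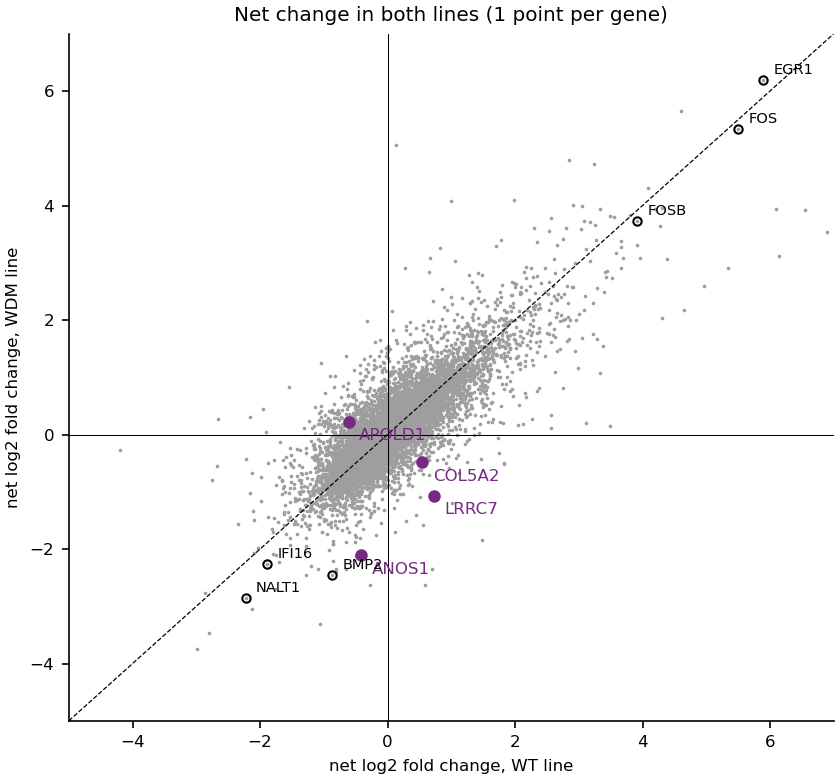
Net log2 fold change of each gene in WDM cytosol (vertical axis) against that in WT cytosol (horizontal axis), 16670 genes, with the diagonal dashed, the 4 genes whose change differed between the lines in purple and other described genes circled. Points follow the diagonal (Pearson correlation 0.826 across genes) and ANOS1, COL5A2 and LRRC7 lie below it.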

How the data were processed

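The authors deposited raw counts of reads per gene for 30 libraries, 1 column each and none pooled. Per the labels, libraries were made with a stranded total RNA kit after rRNA removal. The submitters' processing notes name Trimmomatic, STAR, Picard, featureCounts and GRCh38; versions, annotation and strand setting were not given in the sources used here. Groups and replicate numbers came from sample titles, and the 12 columns of the granule fraction entered no fit, although 3 of them (WT with tetracycline) served to order genes by granule level. Of the identifiers, 60463 were found in GENCODE v44 and 56693 with identical start and end.

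The 18 cytosol libraries were fitted together with edgeR 4.0.16 in R 4.3.3 (filterByExpr with a minimum count of 10 and a minimum total of 15, TMM factors, robust quasi-likelihood F-test). Adjusted p-values are Benjamini-Hochberg over 16670 genes, for changes in either direction. CPM uses TMM-scaled library sizes, and log2 fold changes are model estimates. The SE was derived from the test, as the absolute log2 fold change divided by the square root of the F statistic. The granule measure added 0.5 CPM before the log. Same-numbered libraries of the compared groups did not all deviate together (correlations of -0.031, -0.0447 and -0.00251 for the net change, 0.319, 0.115 and -0.065 for the arsenite step, -0.0368, -0.0378 and -0.0489 for the tetracycline step, and 0.0494, -0.0162 and 0.0567 for the WT net change), and in no comparison were all 3 above 0.1, so the replicate number was not a block. Alternatives were DESeq2 1.42.0, RLE size factors, library size alone, no filter on low counts, a test beyond 1.5-fold, the compared groups alone, the replicate number as a block, and leaving out each library. The fits were tested on simulated data. Python 3.11.15 (numpy 2.4.6, pandas 2.3.3, matplotlib 3.10.9) made the tables and figures.

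The members and gene lists were chosen with earlier results of these data known. Genes named at each end of the change are the 12 higher and 12 lower with the largest log2 fold change among called genes with a symbol, a mean of 5 CPM or more on the higher side and no overlap between groups. Of each list up to 4 members with the largest change are named, and further members were named after their values were seen. For the difference between lines, the 5 genes with the smallest p and at least 5 CPM were taken. Some genes that this rule selects are not reported here.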

Additional observations from a re-analysis of the deposited data

Results flagged for a closer look

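The net change differed between the WDM and WT lines for 4 genes by the test of the difference itself, which is what singles them out. ANOS1 had a difference of -1.70 on the log2 scale (WDM minus WT), COL5A2 of -1.03, LRRC7 of -1.79 and APOLD1 of 0.84. In ANOS1 the WDM libraries fell in both steps. The untreated level of COL5A2 was 37.8 CPM in WDM and 5.48 CPM in WT, so the lines also started far apart. KCND2, a potassium channel gene, came next, with a net log2 fold change of 1.38 in WDM and -0.02 in WT, and its difference of 1.40 was not called (edgeR adjusted p 0.400). It was called with DESeq2 (adjusted p 0.0286), with only the groups compared (0.0194) and with no filter on low counts (6.93e-06), and not when any single library was left out. Of these genes, ANOS1 alone was called whichever of the 12 libraries was left out.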

How the results depend on the processing

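The net change called 6513 genes and between 4987 and 6479 when each of its 6 libraries was left out, 6073 with DESeq2, 6503 with RLE size factors and 6492 with library size alone. A test beyond 1.5-fold called 627. The tetracycline step (1050) gave 422 to 771 when a library was left out. The arsenite step (4804) gave 2490 to 5251, and 1921 when only the groups compared were fitted. With library size alone its calls were 3051 higher and 1513 lower (66.8% higher, against 48.8%). The difference between lines (4) gave 7 with DESeq2, 2 with library size alone, 17 with no filter on low counts, 8 with only the groups compared, and 1 to 3 when a library was left out. With the replicate block, the net change called 7318 genes, the tetracycline step 1435, the arsenite step 5685 and the difference between lines 5. Each count was above the one without the block. The check of deviations found no comparison in which all 3 same-numbered correlations were above 0.1. In the arsenite step they were 0.319, 0.115 and -0.065. That check rests on 3 libraries per group and cannot exclude a pairing. What caused these differences was not tested beyond the fewer libraries or genes that some of these fits hold. No called change of a named gene turned direction. The net changes of 4 named genes, none of them called, turned sign in some alternatives: TIAL1 (0.03) without arsenite-treated replicate 1 (-0.08), CALHM5 (0.07) in leave-one-out fits (down to -0.07), CHRM3 (-0.01) with library size alone (0.06) and in leave-one-out fits (up to 0.06), and KLRK1-AS1 without arsenite-treated replicate 2 (0.05). Over all alternatives, 1584 values of named genes kept their side of the threshold, 120 lost a call and 21 gained one. Most losses came from the 1.5-fold test. ZNF703 lost its call in 9 alternatives and CNOT6 in 7. Depth limits the weak genes, whose levels lie near the floor of 3 counts.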

Other observations

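Genes called in opposite directions in the lines were looked up after their values were seen. Besides COL5A2 and LRRC7 they were PTPRZ1, a receptor phosphatase of glia, and SYT1, the calcium sensor of synaptic vesicles. The mean of PTPRZ1 rose in WDM from 8.53 to 12.2 CPM (log2 fold change 0.51) and fell in WT from 7.96 to 5.61 CPM (-0.50). That of SYT1 rose in WDM from 43.5 to 63.0 CPM (0.53) and fell in WT from 6.86 to 4.32 CPM (-0.67). The edgeR test of the difference called neither (adjusted p 0.425 and 0.411).

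Some listed genes had too few reads to be tested but are given as counts per library. EGR4, of the EGR family, had 2, 0 and 0 counts untreated and 10, 11 and 5 with arsenite. LDHB, a lactate dehydrogenase subunit, had 4, 4 and 1 counts untreated and 17, 19 and 5 with arsenite. PSMD5, a chaperone of proteasome assembly, had 1, 3 and 0 counts untreated and 15, 12 and 11 with arsenite. All were singled out after their values were seen. Other listed genes, among them RPS10, SDHA and HNRNPA1, had 0 counts in all 18 libraries. Whether such low counts reflect low levels or the way reads were assigned to genes was not tested. The counts of LDHB and PSMD5 are therefore not a measure of how strongly these genes are expressed.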
